A study of Saccharomyces cerevisiae with 12 samples.

Results

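The genes described here act when a replication fork meets damaged DNA. They are 10 genes of translesion synthesis and post-replication repair in the budding yeast Saccharomyces cerevisiae: REV1 (YOR346W), REV3 (YPL167C), REV7 (YIL139C), RAD30 (YDR419W), RAD6 (YGL058W), RAD18 (YCR066W), RAD5 (YLR032W), MMS2 (YGL087C), UBC13 (YDR092W) and SRS2 (YJL092W). They were chosen by name, through the probe sets whose only gene symbol in the platform annotation was one of these names. All 10 were found, among 5656 genes with a probe set of their own, and they held 15 of the 9335 probe sets on the array. SRS2 had 6 of these and every other gene had 1. All 10 were among the 5368 genes tested.

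RNA had been hybridized to 12 one-colour Affymetrix arrays, 2 for each of 6 groups: wild type, the TFIIH mutant C403A and the TFIIH mutant C406A, each without treatment and after 30 minutes in 0.03% methyl methanesulfonate (MMS), which methylates DNA bases. TFIIH opens promoters for RNA polymerase II and unwinds the helix around lesions during nucleotide excision repair. The labels name neither the mutated subunit, nor the strain background, nor how the mutant alleles are carried. The study is known to have placed them in the RING finger of Ssl1, a TFIIH subunit.

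When replication stalls at a lesion, Rad6, a ubiquitin-conjugating enzyme, and Rad18, its DNA-binding ligase, attach a single ubiquitin to the sliding clamp PCNA. The modified clamp recruits translesion polymerases, which copy across the damage at some cost in accuracy. Rad5, with the conjugating pair Mms2 and Ubc13, extends the ubiquitin to a chain, which directs an error-free bypass that uses the undamaged sister strand. SUMO on the clamp recruits Srs2, a helicase that holds back recombination. Cells that lack genes of this pathway are known for their sensitivity to MMS.

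The transcript of SSL1 was higher in both mutants, by 1.52 ± 0.08 log2 in C403A and by 1.06 ± 0.08 in C406A without treatment (adjusted p = 1.95e-05 and 0.000352). It therefore separates both mutants from wild type as they are labelled but does not show the substitutions. Between the untreated mutants it was lower in C406A, but that call ended in 8 of 10 other settings of the analysis (-0.66 to -0.44 log2). MAG1, which encodes the glycosylase that removes methylated bases and is a known MMS-induced gene, rose with MMS in each strain, by 1.57, 1.25 and 1.12 log2 in wild type, C403A and C406A (SE 0.13; adjusted p = 4.69e-05, 0.000462 and 0.000472). STE2, the receptor gene of MATa cells, lay between 2001 and 3069 on the 12 arrays and did not pass between strains (smallest adjusted p = 0.114). The other mating-type genes checked, MFA1, MFA2 and the alpha-specific MF(ALPHA)1, did not pass either (smallest adjusted p = 0.191, 0.0735 and 0.267). MF(ALPHA)1 lay between 202 and 393. The median deposited intensity of an array was between 184 and 310.2, and precision is limited by having 2 arrays a group. The 2 arrays of a group correlated with r from 0.985 to 0.993 across the genes tested, which are not independent replicates. The arrays came from 1 chip lot and were scanned on 1 day, one strain after another. Within each strain both untreated arrays were scanned before both MMS arrays. Neither strain nor, within a strain, treatment can therefore be told apart from scan order.

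Levels below are quantile-normalized intensities in the order array 1, array 2, with mean ± SD (n = 2). An intensity depends on the probe as well as the transcript, so levels are compared within a gene and not between genes. Changes are differences of group means of log2 intensity with the SE of the limma contrast, and to pass, a gene needed an adjusted p (Benjamini-Hochberg, over all genes tested) under 0.05. The labels do not say whether a group's arrays stem from separate cultures, and p-values then measure only the spread between these arrays, which may be technical. Intensities under 34.5 were set to that floor before log2 was taken.

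In wild type with MMS, RAD5 and UBC13 of the error-free branch rose, the translesion gene REV1 fell, and the other 7 genes did not pass. These 3 of 10 stand beside 33.0% of all genes tested (19.1% higher and 13.8% lower). In C406A, RAD5 and MMS2 rose and REV1 fell, 3 of 10 beside 24.0% of all genes (12.7% higher and 11.2% lower). In C403A, limma called 0 of the 10 beside 15.6% of all genes, and 3 of them, RAD6, UBC13 and SRS2, had an unadjusted p under 0.05, as did 29.3% of all genes. Averaged over the strains, 4 genes rose (RAD5, RAD30, UBC13 and MMS2) and 1 fell (REV1), beside 47.4% of all genes (25.2% higher and 22.2% lower). The median change of the 10 genes in it was 0.04 log2, against 0.00 for all genes tested. Both treated arrays lay above both untreated ones in every strain for 4 genes, RAD30, RAD5, MMS2 and UBC13, as for 17.0% of all genes. In bulk RNA, fewer cells in a given state and less RNA per cell cannot be told apart.

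**Figure D1:**
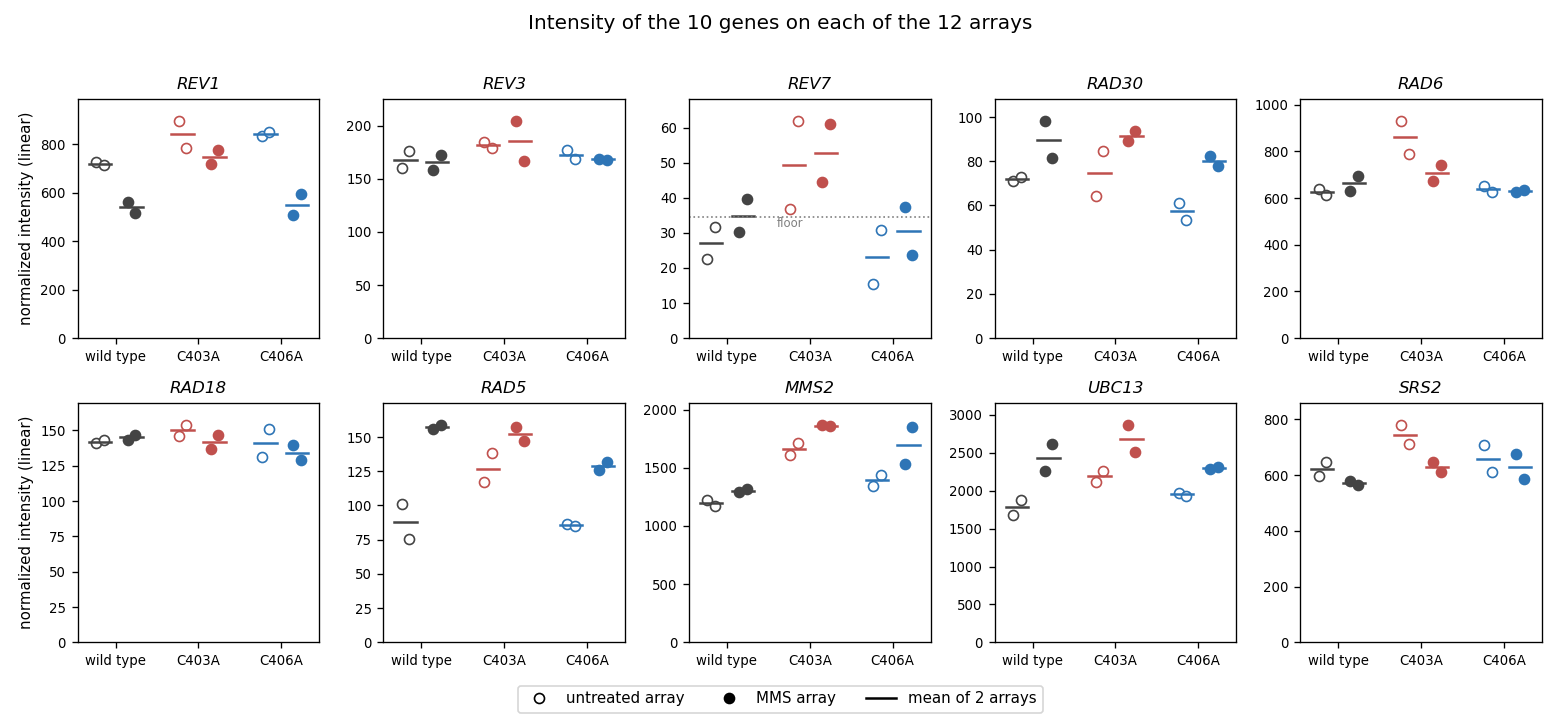
Normalized intensity of each of the 10 genes on every array, on linear axes from 0, by strain and treatment; points are single arrays and short lines are means of 2 arrays. RAD5 rose from 88.0 to 157 in wild type with MMS, while REV1 fell from 719.8 to 539.

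Among the translesion genes, REV1 encodes a deoxycytidyl transferase that also serves as a scaffold for the other polymerases. Untreated wild-type arrays gave 725 and 714 (719.8 ± 7.99), and MMS-treated ones 559.7 and 517 (539 ± 29.9). In C406A the untreated arrays gave 833 and 848 (841 ± 10.5) and the treated ones 507 and 593 (550.0 ± 60.7). The treated arrays of both strains lay below every untreated array of the series. REV1 fell by 0.42 ± 0.10 on the log2 scale in wild type (1.34-fold, adjusted p = 0.00873) and by 0.62 ± 0.10 in C406A (1.53-fold, adjusted p = 0.00186). In C403A the arrays gave 897 and 783 (839.9 ± 80.3) without and 719 and 774 (747 ± 39.3) with MMS. Those groups did not overlap, but the difference of -0.17 ± 0.10 did not pass (95% interval -0.38 to 0.05, adjusted p = 0.288). The mean response over the strains was -0.40 ± 0.06 (adjusted p = 0.000302). Without wild type MMS replicate 2 the wild-type change was -0.36 (adjusted p = 0.0553). Hybridization control scaling ended both calls, at -0.47 in wild type and -0.34 in C406A (adjusted p = 0.0853 and 0.196). Deposited values ended them too, at -0.13 and -0.16 (adjusted p = 0.743 and 0.58). In those values, whose median over all genes rose by 0.31 log2 with MMS, the mean response of REV1 was -0.05 (adjusted p = 0.778), which is -0.36 relative to that median.

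REV3 and REV7 encode the catalytic and the accessory subunit of DNA polymerase zeta, which extends from the base placed opposite a lesion. REV3 ranged from 158 to 205 over the 12 arrays. Its mean response to MMS was -0.01 ± 0.07 log2 (95% interval -0.17 to 0.14, adjusted p = 0.915), and treated and untreated arrays overlapped in each strain. REV7 was near the floor: its untreated wild-type arrays gave 22.6 and 31.8 and its untreated C406A arrays 15.3 and 30.7, all under it. REV7 entered the test through 6 arrays above the floor, 4 of them the C403A arrays. Those 4 gave 36.7 and 62.0 without MMS (49.4 ± 17.9) and 44.5 and 61.0 with it (52.7 ± 11.7). The mean response of REV7 was 0.10 ± 0.14 (95% interval -0.22 to 0.41, adjusted p = 0.605).

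RAD30 encodes DNA polymerase eta, which copies accurately across ultraviolet photoproducts. Its wild-type arrays gave 71.2 and 72.7 (72.0 ± 1.05) without and 98.4 and 81.3 (89.8 ± 12.2) with MMS. In C403A they gave 64.5 and 84.5 (74.5 ± 14.1), then 89.0 and 93.6 (91.3 ± 3.20). In C406A they gave 61.1 and 53.6 (57.4 ± 5.31), then 82.5 and 78.0 (80.3 ± 3.18). The treated arrays lay above the untreated ones in each of the 3 strains. No single strain passed, with differences of 0.31, 0.31 and 0.49 log2 (SE 0.16; adjusted p = 0.168, 0.245 and 0.055). The C406A difference passed without C403A untreated replicate 1 (0.49) or 2 (0.48), at adjusted p = 0.0313 and 0.0317. The mean over strains was 0.37 ± 0.09 and passed (1.29-fold, adjusted p = 0.00931), but not when arrays were scaled to their hybridization controls (0.32, adjusted p = 0.0952).

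The ubiquitination pair RAD6 and RAD18 did not pass in any MMS response. RAD18 ranged from 129 to 154 over the 12 arrays, with a mean response of -0.04 ± 0.06 log2 (95% interval -0.18 to 0.10, adjusted p = 0.63). RAD6 stayed between 615 and 694 on the 8 arrays of wild type and C406A. In C403A it gave 932 and 789 (861 ± 101) without and 671 and 741 (706 ± 49.5) with MMS, groups that did not overlap. The difference there was -0.28 ± 0.09 (adjusted p = 0.0708), and without C403A untreated replicate 2, the lower of that pair, it passed at -0.40 (adjusted p = 0.0272).

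RAD5 encodes a ubiquitin ligase that is also a DNA helicase, and it had the largest mean change of the 10 genes. Wild-type arrays gave 101 and 75.3 (88.0 ± 18.1) without and 156 and 159 (157 ± 2.13) with MMS. In C403A they gave 117 and 138 (127 ± 14.8), then 157 and 147 (152 ± 7.13). In C406A they gave 86.2 and 85.2 (85.7 ± 0.672), then 126 and 132 (129 ± 4.68). Treated and untreated arrays did not overlap in any strain, and untreated C403A already lay near the treated level of C406A. RAD5 rose by 0.85 ± 0.15 log2 in wild type (1.81-fold, adjusted p = 0.00215) and by 0.59 ± 0.15 in C406A (1.5-fold, adjusted p = 0.0197). In C403A the difference of 0.26 ± 0.15 did not pass (95% interval -0.07 to 0.60, adjusted p = 0.286). The mean response was 0.57 ± 0.09 (1.48-fold, adjusted p = 0.000539). The C406A call ended without any one of the 4 C406A arrays: 0.60 and 0.58 without untreated replicates 1 and 2, 0.63 and 0.55 without MMS replicates 1 and 2 (adjusted p from 0.055 to 0.0946). A floor at the 40th percentile (148), above most RAD5 values, left 0.09 in wild type (adjusted p = 0.227).

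UBC13 and MMS2 encode the conjugating enzyme and its catalytically inactive partner, which together build ubiquitin chains. UBC13 in wild type gave 1683 and 1881 (1782 ± 140.4) without and 2261 and 2611 (2436 ± 247) with MMS. It gave 2112 and 2265, then 2870.0 and 2506 in C403A, and 1975 and 1936, then 2287 and 2308 in C406A. The treated arrays were the higher ones in each strain, with no overlap. UBC13 rose by 0.45 ± 0.09 log2 in wild type (1.37-fold, adjusted p = 0.00429), where the call was lost with hybridization control scaling (0.30, adjusted p = 0.16). Its differences of 0.29 ± 0.09 in C403A and 0.23 ± 0.09 in C406A did not pass (adjusted p = 0.0547 and 0.0911), and its mean response of 0.33 ± 0.05 did (adjusted p = 0.000696). The C403A difference passed without wild type MMS replicate 1 (0.29), wild type MMS replicate 2 (0.30) or C403A MMS replicate 2 (0.39), at adjusted p = 0.0437, 0.0427 and 0.0489.

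MMS2 moved less. It gave 1226 and 1168, then 1289.6 and 1315 in wild type, and 1607 and 1714, then 1869 and 1855 in C403A. In C406A it gave 1345 and 1437 (1391 ± 65.0) without and 1535 and 1848 (1692 ± 221) with MMS. The lowest treated array exceeded the highest untreated one in each strain. The difference passed in C406A (0.28 ± 0.08, adjusted p = 0.0416) and in the mean over strains (0.19 ± 0.05, adjusted p = 0.0106), and not in wild type (0.12 ± 0.08, adjusted p = 0.299) or C403A (0.17 ± 0.08, adjusted p = 0.229). The C406A call ended without any 1 of 9 of the 12 arrays, all but C403A untreated replicates 1 and 2 and C406A MMS replicate 1, and was 0.14 (adjusted p = 0.259) without C406A MMS replicate 2. It also ended with median scaling (0.27, adjusted p = 0.0733) and, at 0.28, without the filter, without the trend or in a fit of only the groups compared (adjusted p = 0.0556, 0.0634 and 0.157). The mean call ended with hybridization control scaling (0.19, adjusted p = 0.119).

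SRS2 did not pass in an MMS response. The arrays of its brightest probe set gave 596 and 645, then 577 and 563 in wild type, 780.3 and 709.6, then 646 and 611 in C403A, and 708 and 611, then 674 and 585 in C406A. The treated arrays lay below the untreated ones in wild type and C403A and overlapped them in C406A. The mean difference was -0.14 ± 0.06 log2 (95% interval -0.27 to -0.01, adjusted p = 0.0666), and it passed at -0.18 without C406A untreated replicate 2 or without C406A MMS replicate 1 (adjusted p = 0.0389 and 0.0363).

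**Figure D2:**
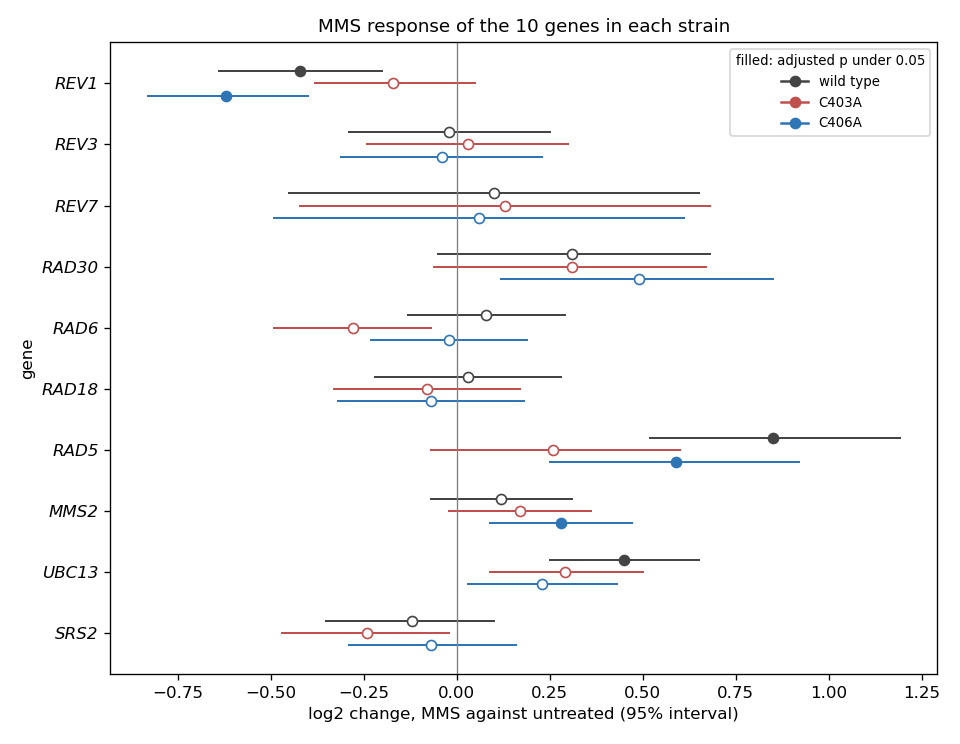
Log2 MMS response of each gene in wild type, C403A and C406A, with 95% intervals of the limma contrast; filled points passed. RAD5 and REV1 passed in wild type and C406A with opposite signs, and no gene passed in C403A.

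Before any treatment, C403A had more transcript than wild type of RAD5, MMS2 and RAD6, 3 of 10 genes beside 14.1% of all genes (9.17% higher). RAD5 was higher by 0.54 ± 0.15 log2 (1.45-fold, adjusted p = 0.0409), MMS2 by 0.47 ± 0.08 (1.39-fold, adjusted p = 0.00738) and RAD6 by 0.45 ± 0.09 (1.37-fold, adjusted p = 0.0135). Both C403A arrays lay above both wild-type arrays for 9 of the 10 genes, all but RAD30, where 32.2% of all genes did so. SRS2 was among the 9 through its brightest probe set (0.26). Fitted on their own, its other probe sets were at -0.93, -0.06, -0.67, -0.41 and 0.16, and none passed. In deposited values only REV1, RAD6, RAD5 and MMS2 had both C403A arrays above both wild-type arrays. After quantile normalization the median difference of the 10 genes was 0.28 log2, against 0.03 over all genes tested. UBC13 at 0.30 ± 0.09 (adjusted p = 0.0556), SRS2 at 0.26 ± 0.10 (adjusted p = 0.113) and REV1 at 0.22 ± 0.10 (adjusted p = 0.16) did not pass. REV7 did not pass either (adjusted p = 0.23). Both of its untreated wild-type arrays were under the floor, so its difference of 0.47, or 0.85 without C403A untreated replicate 1 (adjusted p = 0.0318), is only a bound and its p can be too small. REV3 and RAD18, at 0.12 ± 0.12 and 0.08 ± 0.11, were nearest to 0 after RAD30 (0.04 ± 0.16).

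The calls of RAD5, MMS2 and RAD6 each ended with deposited values, with hybridization control scaling and in a fit of only the groups compared. That of RAD5 also ended with median scaling, with a floor at the 40th percentile and with array weights, in all 6 of 11 settings. The calls differed as well in how far they rested on single arrays. MMS2 kept its call whichever of the 12 arrays was left out, at 0.43 to 0.52. RAD5 passed without wild type untreated replicate 1 or without C403A untreated replicate 1, and without any one of the other 10 arrays it did not, with values from 0.33 to 0.76 over all 12 and adjusted p up to 0.204. RAD6 did not pass without wild type untreated replicate 2 (0.42, adjusted p = 0.0733), and UBC13 passed without wild type MMS replicate 1 or 2 (0.30 each, adjusted p = 0.0447 and 0.0457). With hybridization control scaling, where the median over all genes was -0.23, RAD5 was at 0.13, MMS2 at 0.24 and RAD6 at 0.22 (adjusted p = 0.709, 0.322 and 0.408).

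In untreated C406A, limma called 0 of the 10 genes against wild type, beside 2.70% of all genes. REV1 and MMS2, both at 0.22 log2 (SE 0.10 and 0.08), had an unadjusted p under 0.05 (adjusted p = 0.275 and 0.23), as did 17.2% of all genes. Of the 3 genes that were higher in untreated C403A, the 95% intervals in C406A reached from -0.36 to 0.31 for RAD5, from -0.18 to 0.24 for RAD6 and from 0.03 to 0.41 for MMS2. RAD30 at -0.33 ± 0.16 (adjusted p = 0.341) was the member farthest below wild type.

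After MMS, MMS2 was higher than in wild type in both mutants. It stood at 0.52 ± 0.08 log2 in C403A (1.43-fold, adjusted p = 0.00501) and at 0.37 ± 0.08 in C406A (1.29-fold, adjusted p = 0.0419). Every MMS2 array of C403A and C406A, treated or not, lay above every wild-type array of the same treatment. REV1 was higher in treated C403A by 0.47 ± 0.10 (1.39-fold, adjusted p = 0.0127). That makes 2 of 10 genes in C403A beside 13.6% of all genes (7.47% higher), and 1 of 10 in C406A beside 4.53% (2.72% higher). RAD5 was at -0.05 ± 0.15 in C403A (adjusted p = 0.865) and -0.29 ± 0.15 in C406A (95% interval -0.63 to 0.05, adjusted p = 0.307). REV1 did not pass without wild type MMS replicate 2 (0.41, adjusted p = 0.0725) or C403A MMS replicate 2 (0.42, adjusted p = 0.079). The C406A call of MMS2 ended without any 1 of the same 9 arrays, with values from 0.24 to 0.50 over the 12 arrays left out. With hybridization control scaling the C403A differences were 0.22 for MMS2 and 0.20 for REV1 (adjusted p = 0.336 and 0.445). Both mutants were set against the same wild-type arrays.

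**Figure D3:**
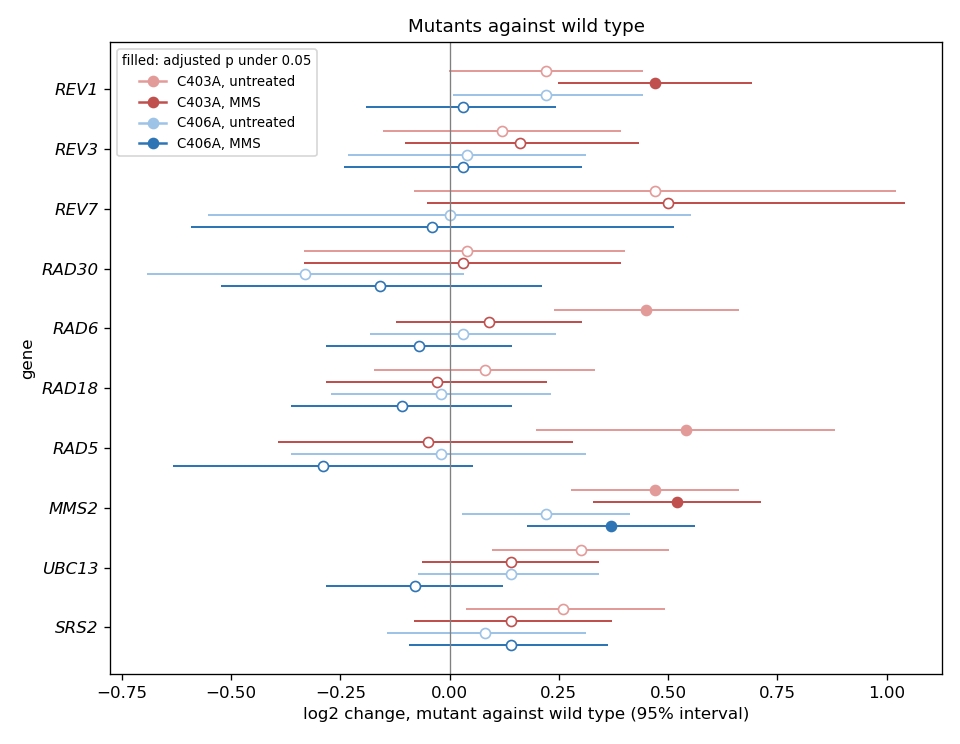
Log2 difference of each gene between mutant and wild type, untreated and after MMS, with 95% intervals of the limma contrast; filled points passed. MMS2 passed in C403A under both conditions, and RAD5 and RAD6 passed in untreated C403A.

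Whether a gene's MMS response differed between strains was tested with an interaction term, which is the difference of 2 responses. Limma called 0 of the 10 genes for C403A (0.987% of all genes) and 0 for C406A (0 of all genes). At an unadjusted p under 0.05 the counts were 2, RAD6 and RAD5, for C403A, where 16.2% of all genes had one, and 0 for C406A, where 8.4% had. The RAD5 interaction for C403A was -0.59 ± 0.21 log2 (95% interval -1.07 to -0.12, adjusted p = 0.212). That of RAD6 was -0.36 ± 0.13 (adjusted p = 0.219), and that of REV1 was 0.25 ± 0.14 (95% interval -0.05 to 0.56, adjusted p = 0.414). For C406A the RAD5 interaction was -0.27 ± 0.21 (95% interval -0.74 to 0.21, adjusted p = 0.739). The pass in wild type and the lack of one in C403A are therefore not shown to differ for any of the 10 genes.

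Set against each other without treatment, the mutants differed in 0 of the 10 genes by limma, beside 0.652% of all genes, and 4 (RAD30, RAD6, RAD5 and MMS2) had an unadjusted p under 0.05, as did 16.4% of all genes. Both C406A arrays lay below both C403A arrays for 8 of the 10 genes, where 29.5% of all genes did so. The 8 include REV7, whose untreated C406A arrays (15.3 and 30.7) were both under the floor and which entered the test mainly through C403A arrays. SRS2 was among the 8 through its brightest probe set (-0.18). Fitted on their own, its other probe sets were at 0.50, 0.47, 0.35, 0.57 and 0.24, and none passed. RAD5 was at -0.56 ± 0.15 log2 and RAD6 at -0.42 ± 0.09 (adjusted p = 0.115 and 0.0709). The same untreated C403A arrays enter the difference from untreated wild type, the C403A MMS response and the C403A interaction. Those results and the ones here are therefore not independent of each other. After MMS, REV1 was lower in C406A than in C403A, at -0.44 ± 0.10 log2 (adjusted p = 0.0305), 1 of 10 genes beside 6.69% of all genes (3.52% lower). This call was lost without C403A MMS replicate 1 or 2 (-0.50 and -0.39), C406A untreated replicate 1 or 2 (-0.44 each) or C406A MMS replicate 1 or 2 (-0.33 and -0.56), at adjusted p from 0.0505 to 0.146.

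Ordered by level over the 6 groups, RAD5 was lowest in untreated C406A (85.7) and untreated wild type (88.0), whose arrays overlapped. Untreated C403A (127) followed, and its arrays overlapped those of treated C406A (129). Treated C403A (152) came next and overlapped treated wild type (157). REV1 had another order, with treated wild type (539) and treated C406A (550.0) overlapping at the bottom, then untreated wild type (719.8) overlapping treated C403A (747), and untreated C403A (839.9) overlapping untreated C406A (841) at the top. Over the 6 group means, as a description, RAD5 correlated with UBC13 at r = 0.93, with RAD30 at 0.89 and with REV1 at -0.51, and these points share libraries and normalization. The genes most like RAD5 over the 6 group means were CYC2 (r = 0.9977), DSC3 (r = 0.9958) and RRI2 (r = 0.9911). They were picked as the highest among all genes tested over only 6 points, so values near 1 can come from that choice alone. In the mean MMS response DSC3 (0.37) and RRI2 (0.43) passed, and CYC2 (0.17, limma adjusted p = 0.0646) did not. Over the 12 arrays the same correlations were 0.830, 0.908 and 0.950.

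**Figure D4:**
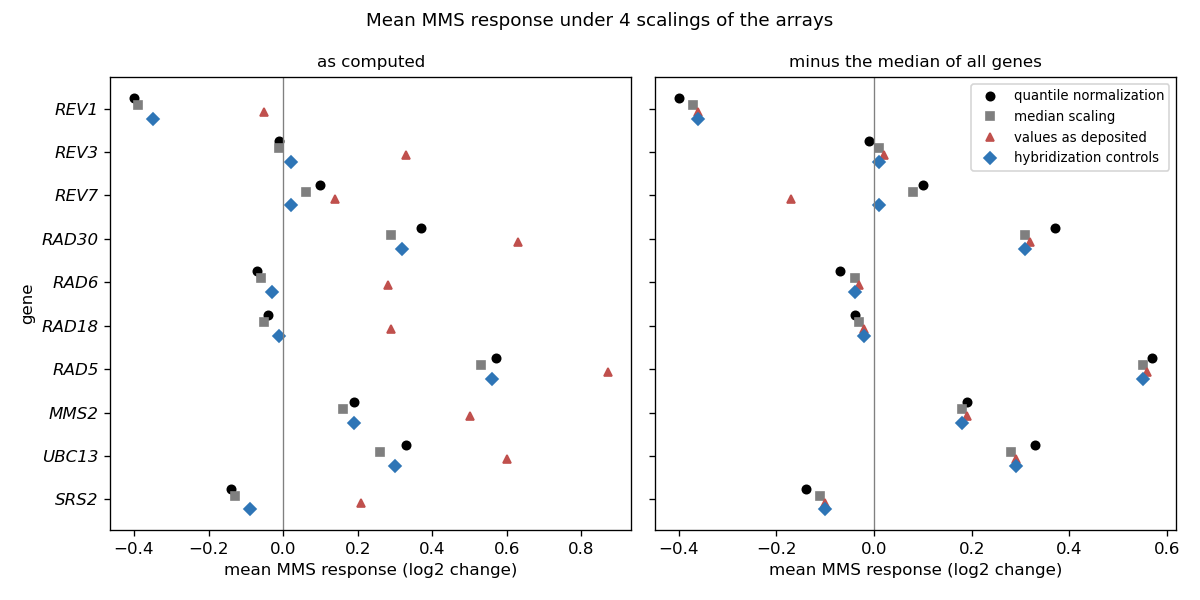
Mean MMS response of each gene (log2 change) under 4 scalings of the arrays, as computed on the left and minus the median of all genes on the right. On the right RAD5 lay between 0.55 and 0.57 and REV1 between -0.40 and -0.36 under all 4.

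The clamp on which the pathway acts was followed through 13 genes: PCNA, its SUMO and ubiquitin modifiers, and the subunits of DNA polymerase delta with 3 other clamp or fork proteins. With MMS, 1 rose and 2 fell in wild type, 1 rose and 1 fell in C403A, and 2 rose and 1 fell in C406A, with list medians of -0.00, 0.00 and -0.04 log2 against 0.02, -0.00 and 0.00 for all genes. Of all genes, 19.1% rose and 13.8% fell in wild type, 8.42% and 7.13% in C403A, and 12.7% and 11.2% in C406A. POL30, which encodes PCNA, gave 1120.5 and 1074 without and 2005 and 1939.5 with MMS in wild type. It rose in each strain, by 0.85, 0.76 and 0.67 in wild type, C403A and C406A (SE 0.07; adjusted p = 4.74e-05, 0.000252 and 0.0003). UBP10, a protease that removes ubiquitin from PCNA, fell in each, by 0.47, 0.38 and 0.66 (SE 0.07; adjusted p = 0.00128, 0.00972 and 0.000361). With deposited values the 3 calls of UBP10 ended (-0.24, -0.09 and -0.24, adjusted p = 0.422, 0.771 and 0.307), while its mean response relative to the median of all genes was -0.50 under both scalings. Its C403A and C406A calls also ended with hybridization control scaling (-0.50 and -0.42, adjusted p = 0.0669 and 0.0587), and the C403A call without C403A MMS replicate 2 (-0.35, adjusted p = 0.0554).

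Other genes of this list passed in 1 strain or in the mean. SMT3, the SUMO gene, fell by 0.28 in wild type (adjusted p = 0.019), but not without wild type untreated replicate 2 (-0.18), wild type MMS replicate 1 (-0.29) or wild type MMS replicate 2 (-0.26), and with deposited values it was at -0.09. POL32, a polymerase delta subunit that also serves polymerase zeta, rose by 0.60 ± 0.16 in C406A (adjusted p = 0.0255), but not without C406A untreated replicate 2 (0.44), C406A MMS replicate 1 (0.53) or C406A MMS replicate 2 (0.67). In the mean over strains 3 of the 13 rose and 3 fell, where 25.2% and 22.2% of all genes did: POL30, POL32 (0.35) and MGS1 (0.35), then UBP10, UBP12 (-0.25) and UBC9 (-0.21), of which UBP12 and UBC9 were at 0.10 and 0.15 with deposited values, or -0.21 and -0.16 relative to the median of all genes there. The untreated arrays of MGS1, which encodes an ATPase that binds ubiquitinated PCNA, were under the floor in wild type and C406A. Its change is therefore a bound, its p can be too small, and the call ended without 8 of the 12 arrays (0.29 to 0.36, adjusted p up to 0.0732): all but wild type MMS replicate 1, C403A untreated replicate 2, C403A MMS replicate 2 and C406A MMS replicate 1. Against wild type, POL30 was lower in C403A, at -0.34 ± 0.07 without MMS (adjusted p = 0.0153) and at -0.42 ± 0.07 with it (adjusted p = 0.00622), and at -0.40 ± 0.07 in treated C406A (adjusted p = 0.0164). The first of these ended without wild type untreated replicate 1 or C403A untreated replicate 2 (-0.31 each), and the last without wild type MMS replicate 1 (-0.39) or C406A MMS replicate 2 (-0.34). All of these POL30 calls ended with deposited values. The first and the last also ended in a fit of only the groups compared, and the last with hybridization control scaling.

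Rad6 also works outside the clamp, with the ligases Bre1, Ubr1 and Ubr2, and draws on the cell's ubiquitin. Of 7 such genes, the 3 ligases with LGE1, RAD23, UBI4 and UBA1, 5 rose and 1 fell in wild type, where 19.1% and 13.8% of all genes did. In C403A 2 rose and in C406A 1 rose, where 8.42% and 12.7% of all genes did, and the list medians were 0.36, 0.14 and 0.17 log2 in the 3 strains. UBI4, the polyubiquitin gene induced by stress, gave 1013 and 1102 without and 2825 and 2856 with MMS in wild type, and rose by 1.43, 0.87 and 0.87 log2 (SE 0.06; adjusted p = 8.43e-07, 2.23e-05 and 2.49e-05). RAD23, which encodes a ubiquitin-binding repair factor, rose by 0.36 in wild type (adjusted p = 0.00415) and by 0.37 in C403A (adjusted p = 0.00844), the latter not without C403A MMS replicate 2 (0.34, adjusted p = 0.0538). UBR2 rose by 0.53 in wild type (adjusted p = 0.036), and the call ended without any wild-type array or either untreated C406A array (0.47 to 0.58, adjusted p from 0.0513 to 0.138). BRE1 fell by 0.29 (adjusted p = 0.0199), but not without wild type untreated replicate 1 (-0.31), wild type untreated replicate 2 (-0.28) or wild type MMS replicate 2 (-0.25), and it was at -0.01 with deposited values.

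UBI4 was already higher in the untreated mutants, by 0.67 ± 0.06 in C403A (adjusted p = 0.000246) and by 0.46 ± 0.06 in C406A (adjusted p = 0.00436). With hybridization control scaling neither passed, at 0.43 in C403A and 0.14 in C406A (adjusted p = 0.0765 and 0.481). The C406A difference was 0.23 with deposited values (adjusted p = 0.662), and 0.45 without C406A untreated replicate 2 (adjusted p = 0.0511). RAD6 itself did not pass in an MMS response in any strain, at 0.08 ± 0.09, -0.28 ± 0.09 and -0.02 ± 0.09.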

How the data were processed

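Each array has 1 deposited intensity per probe set, linear and partly below 0 (8.95% of values); the authors' summarization and scaling are not given here. Array medians differed 1.69-fold, so intensities were quantile-normalized over probe sets other than the 60 controls, floored at their 20th percentile (34.5) and taken to log2. Probe sets with several genes (328) or none (2503) were left out, the brightest was taken per gene, and genes above the floor on fewer than 2 arrays (288) were left out.

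The 6 groups were fitted together in limma 3.58.1 under R 4.3.3 (lmFit, then eBayes with trend, 6 residual and 3.53 prior degrees of freedom), with Benjamini-Hochberg adjustment over 5368 genes. Scripts were tested on simulated data. Named were the 10 genes, SSL1, MAG1, the 3 genes most like RAD5, and of each list up to 3 passing genes each way in an MMS response; STE2 served as a marker check. POL30 and UBI4 in other comparisons were chosen with their values seen. The members and lists were chosen with earlier results of these data known. Alternatives were median scaling, deposited values, scaling to 9 hybridization controls, a higher floor (40th percentile) or none, fits without filter or without trend, averaging probe sets, fitting only the groups compared, array weights, leaving out each array and, added after seeing the data, every probe set on its own. Gene names and neighbours came from the R64 table, and figures from matplotlib 3.10.9 in Python 3.11.15.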

Additional observations from a re-analysis of the deposited data

Results flagged for a closer look

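The MMS response of UBI4, the polyubiquitin gene, was smaller in C403A than in wild type, by a test of the difference itself: the interaction was -0.55 ± 0.08 log2 (limma, adjusted p = 0.0218). Mean intensity rose from 1057 to 2840.2 in wild type and from 1679 to 3075 in C403A. The call ended without wild type untreated replicate 1 (-0.49), wild type MMS replicate 1 (-0.57) or C403A MMS replicate 2 (-0.52), at adjusted p = 0.052, 0.0931 and 0.0633. The call also ended with deposited values (-0.50), hybridization control scaling (-0.58) and the compared groups alone (-0.55). The C406A interaction was as large, at -0.56 ± 0.08, and did not pass (adjusted p = 0.0914). The C403A interaction and the higher untreated level of UBI4 there rest on the same untreated arrays.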

How the results depend on the processing

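Over the 10 genes, 120 results were recomputed in 2726 alternatives: 2623 kept their side of the threshold, 83 lost a call, 20 gained one and 0 reversed. Most of the 120 results were not calls, so most alternatives had no call to lose, and the 83 losses all fall on the few that were. Among the 2623, 146 changed sign with no call in either fit. With hybridization control scaling, the counts of the 10 genes that passed became 1 (from 3) in the wild-type MMS response, 3 (from 5) in the mean response, and 0 in the untreated C403A (from 3), treated C403A (from 2), treated C406A (from 1) and treated C406A against C403A (from 1) comparisons. With deposited values those last 4 counts were also 0. A floor at the 40th percentile, which left 8 of the genes testable, gave 1 (from 0) in the C403A response and 3 in the mean response. With the compared groups alone, a fit on fewer arrays, the counts were 0, 1, 0 and 0 in the same 4 comparisons. In treated C406A against wild type, median scaling, no filter and no trend also gave 0. Leaving out each array gave 0 to 1 in the C403A response, 1 to 4 in the C406A response, 1 to 4 in untreated C403A, 1 to 2 in treated C403A, 0 to 1 in treated C406A and 0 to 1 for C406A against C403A after MMS. In the C406A response the 10 genes that passed were 4 higher and 0 lower with deposited values and 3 higher and 0 lower with hybridization control scaling, whose medians over all genes were 0.43 and 0.25. Deposited values move the mean MMS response of all genes by 0.31 in the median. With that shift UBC9 (0.15), ULP1 (0.33) and UBP12 (0.10) had the opposite sign, and the calls of UBC9 and UBP12 ended. Of the 10 genes, SRS2 (0.21), RAD6 (0.28), RAD18 (0.29) and REV3 also had the opposite sign, with no call under either scaling. UBA1 in untreated C403A was at -0.03 with hybridization control scaling, whose median there was -0.23. Of all calls in the MMS responses 53.1% to 58.0% were higher, against 91.9% to 98.6% with deposited values and 36.0% to 93.8% with hybridization control scaling; in the mutants against wild type the shares were 55.1% to 67.6%, 46.7% to 59.8% and 4.3% to 76.1%. No paired analysis was possible because the labels number no replicates. Signal near the floor limits REV7.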

Other observations

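SRS2 had 5 probe sets besides the one used, with mean intensities of 55.5, 36.2, 83.6, 293 and 302 against 642 for the brightest. Fitted on their own, 0 of the 5 passed in an MMS response by limma, and the lowest adjusted p was 0.0607, for the probe set of mean intensity 293 in C403A (0.55 ± 0.17 log2), where the brightest was at -0.24 ± 0.10.

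The 5 genes that passed in the mean MMS response have 10 chromosomal neighbours, of which 8 were tested. TYE7, next to REV1, passed in the same direction as its neighbour (-0.38). PYK2, on the other side of REV1 (0.31), HKR1 next to RAD30 (-0.39) and RLI1 next to UBC13 (-0.56) passed in the opposite direction to theirs, and 4 did not pass. Of all genes tested, 47.4% passed in that response (25.2% higher and 22.2% lower), a share close to that of these neighbours.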
